A study of Homo sapiens with 6 samples.

Results

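The U1 small nuclear RNA (snRNA) family was taken as every entry of the small RNA count tables whose name begins with RNU1- or RNVU1, together with the entry named U1. These were 141 of the 28846 small RNAs listed. By their names, 4 were canonical genes (RNU1-1 to RNU1-4), 20 were variant genes (RNVU1), 116 were pseudogenes (RNU1 with a final P) and 1 was the unnumbered entry U1. The members were chosen by name and not by any measured value.

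The data came from K562, a human chronic myeloid leukaemia cell line with erythroid features. In 3 control samples the cells carried the empty lentiviral vector SIEW, which expresses GFP only, and in 3 RUNX1 samples they carried SIEW with human RUNX1, a haematopoietic transcription factor, beside GFP. All cells had grown for 10 days before total RNA was taken for small RNA sequencing. The transgene was therefore expressed from a vector in a transformed line. It came on top of the line's own RUNX1, which the authors detected as protein in K562 cells. The RUNX1 messenger RNA was not analysed here.

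U1 snRNA is the RNA part of the U1 particle, which recognises the 5′ splice site of an intron by base pairing with the 5′ end of the RNA. The particle contains the proteins SNRNP70, SNRPA and SNRPC and a ring of Sm proteins, which assembles on a uridine-rich stretch of the RNA. U1 also protects nascent transcripts from premature cleavage and polyadenylation. Human genomes hold several identical U1 genes, a group of diverged variant genes and many scattered copies annotated as pseudogenes.

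The small RNA tables held between 1618248 and 15245007 counts per sample, and microRNAs made up 81.4 to 82.1% of the counts in the control samples and 89.5 to 91.9% in the RUNX1 samples. The erythroid microRNA miR-451a had 5950 to 23985 counts per sample, while the neuronal miR-124-3p had 0 counts in all 6 samples. RUNX1 replicate 3 stood apart from the other RUNX1 samples. Over all small RNAs, the chi-square divided by its degrees of freedom was 314 and 451 for its pairs with them and 56.3 for the pair of those 2. Where leaving it out changed a separation of the groups, or a log2 fold change by more than 0.5, that is said beside the value. The names of the control and the RUNX1 libraries carry different letters, so a difference between preparations, if that is what the letters mark, cannot be told apart from the condition.

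The U1 entries differ in how much of their sequence is their own. By name, 127 of the 141 entries matched a gene in the GENCODE 29 annotation on GRCh38, and all sequences and positions below are from there. RNU1-1 is shown as the reference, because RNU1-2, RNU1-3, RNU1-4, RNVU1-18, RNU1-27P and RNU1-28P have the same 164 bases. It lies at chr1:16514122-16514285 on the minus strand. The capitals mark positions 3 to 11 from the 5′ end, which pair with the 5′ splice site.
RNU1-1: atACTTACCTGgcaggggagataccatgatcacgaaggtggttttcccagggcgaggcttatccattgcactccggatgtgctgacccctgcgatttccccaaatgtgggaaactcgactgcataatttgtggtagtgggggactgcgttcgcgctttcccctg

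The 3 variant entries with enough counts for a test are shown next, with every base that is mismatched or inserted relative to RNU1-1 in capitals. RNVU1-6 lies at chr1:146052081-146052244 on the minus strand. RNVU1-14 lies at chr1:145281116-145281279 on the plus strand, in an exon of the long intergenic RNA AC245014.3. RNVU1-17 lies at chr1:143699456-143699619 on the minus strand. All 3 kept the pairing stretch ACTTACCTG at its place, with no capital among positions 3 to 11.
RNVU1-6: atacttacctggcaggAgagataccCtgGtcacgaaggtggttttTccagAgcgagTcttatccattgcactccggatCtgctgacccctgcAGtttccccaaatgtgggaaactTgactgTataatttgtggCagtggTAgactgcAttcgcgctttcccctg
RNVU1-14: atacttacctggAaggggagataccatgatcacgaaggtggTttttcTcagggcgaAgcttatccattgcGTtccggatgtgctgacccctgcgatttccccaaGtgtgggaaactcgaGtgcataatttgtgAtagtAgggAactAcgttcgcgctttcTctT
RNVU1-17: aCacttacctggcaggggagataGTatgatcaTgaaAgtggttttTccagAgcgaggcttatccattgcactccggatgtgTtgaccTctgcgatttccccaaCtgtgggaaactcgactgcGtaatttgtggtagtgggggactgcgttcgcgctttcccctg

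The pseudogene entries that carried most of the counts or fell the most are shown in the same way. RNU1-67P lies at chrX:119423742-119423905 on the plus strand, in an intron of SLC25A43. RNU1-16P lies at chr13:113478915-113479078 on the minus strand, in an intron of DCUN1D2. RNU1-83P lies at chr12:62850738-62850901 on the minus strand, in an intron of PPM1H, and RNU1-59P lies at chr1:149162783-149162944 on the minus strand. In the first 3 the host gene is protein-coding and on the same strand.
RNU1-67P: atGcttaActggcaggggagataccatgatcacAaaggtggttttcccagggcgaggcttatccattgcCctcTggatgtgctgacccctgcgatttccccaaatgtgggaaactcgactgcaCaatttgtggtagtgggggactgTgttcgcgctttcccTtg
RNU1-16P: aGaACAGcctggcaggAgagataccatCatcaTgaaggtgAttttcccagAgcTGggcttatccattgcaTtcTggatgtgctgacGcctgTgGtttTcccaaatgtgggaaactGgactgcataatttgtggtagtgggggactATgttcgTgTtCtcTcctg
RNU1-83P: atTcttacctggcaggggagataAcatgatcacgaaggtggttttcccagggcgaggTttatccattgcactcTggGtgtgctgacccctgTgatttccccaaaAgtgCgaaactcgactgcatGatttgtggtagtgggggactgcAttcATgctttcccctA
RNU1-59P: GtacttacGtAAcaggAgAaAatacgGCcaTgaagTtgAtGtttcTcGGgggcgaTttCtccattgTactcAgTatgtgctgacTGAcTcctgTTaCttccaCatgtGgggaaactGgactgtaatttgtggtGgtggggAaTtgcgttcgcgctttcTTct

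These pseudogene copies differed in the stretch that pairs with the splice site. Counted from 1 at the 5′ end, with the base of RNU1-1 first, RNU1-67P had A3G and C8A, RNU1-16P had C4A, T5C, T6A and A7G, and RNU1-83P had A3T. Identity to RNU1-1 over the alignment was 95.1% for RNU1-67P, 92.1% for RNU1-83P, 84.8% for RNU1-16P and 73.3% for RNU1-59P. The variants lay between 90.9% for RNVU1-6 and 93.3% for RNVU1-17.

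Of the 141 U1 entries, 68 had at least 1 count and 73 had none in any sample. All U1 entries together had 2235 counts. Pseudogene entries held 1865 of these, variants 359, the unnumbered U1 entry 9 and the canonical genes 2. The canonical genes, which are known to make most of the U1 RNA of a cell, were near 0. RNU1-1 had 1, 0 and 1 counts in control replicates 1 to 3 and 0 in all RUNX1 samples, and RNU1-2, RNU1-3 and RNU1-4 had 0 in all 6 samples. The limit that a count of 0 allows was 3 counts, or 1.97e-05 to 0.000185% of a sample's counts, and no fold change is given for the canonical genes.

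Counts were found on entries with sequence of their own. The 7 entries identical to RNU1-1 had 3 counts in all, 2 on RNU1-1 and 1 on RNVU1-18. In 17 entries no window of 25 bases was free of a match in another U1 entry, and 2 of these had a count, with 3 counts together. In the 105 entries with at least 50% of windows unique, 58 had a count and the sum was 2089. Windows of 20 and 30 bases gave the same 17 entries without a unique window and the same 3 counts. How reads that match several entries were counted is not given in the sources used here, and its part in the near absence of canonical counts was not tested.

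**Figure D1:**
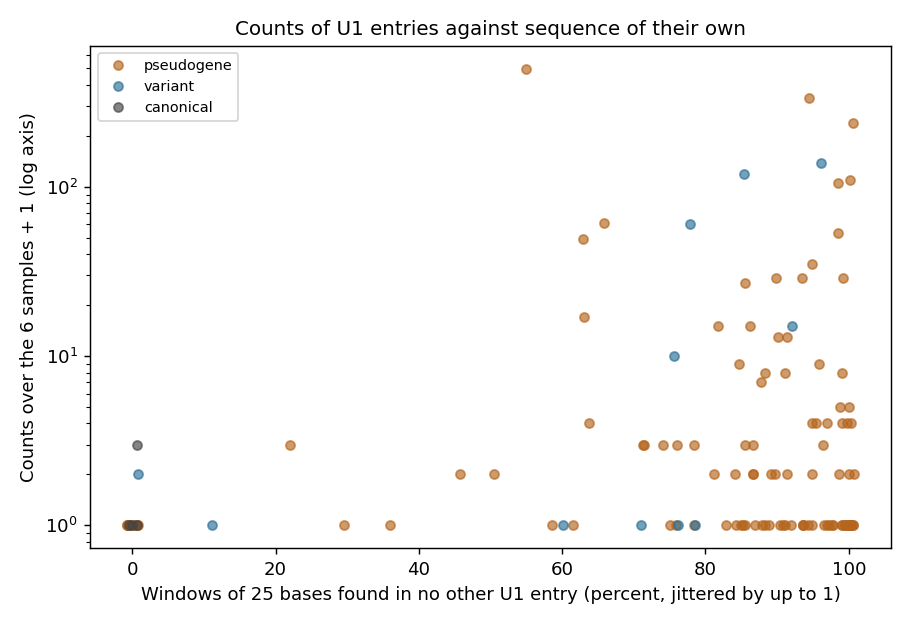
Counts of each U1 entry over the 6 samples, plus 1 and on a log axis, against the percent of its 25-base windows that occur in no other U1 entry, for the 127 entries with a sequence. The canonical genes sit at 0% with at most 2 counts, and the entries with more than 100 counts lie above 50%.

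Among the entries that are not identical to RNU1-1, counts did not follow likeness to RNU1-1 in a simple order. The 19 entries with 90% identity or more, short of 100%, held 1026 counts and 14 of them were detected. The 53 entries between 80 and 90% held 507 counts, and the 33 entries between 70 and 80% held 549. Below 70% identity, 2 of 15 entries were detected, with 10 counts. RNU1-67P alone made up 497 of the 1026 counts, RNU1-16P 332 of the 507 and RNU1-59P 237 of the 549.

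Counts were found on entries with and without the known functional stretches. The stretch ACTTACCTG stood at positions 3 to 11 in 42 of the 127 entries, of which 20 had a count, and it was not at that place in 85, of which 42 had a count. The former held 392 counts and the latter 1703. The Sm-binding stretch of RNU1-1, AATTTGTGG at positions 125 to 133, was found as an exact match in 57 entries with 1657 counts. An entry that differs from it in a single base is counted as lacking it. Both stretches were present in 19 entries with 231 counts. RNVU1-14 kept the pairing stretch and differed from this Sm stretch in its last base only, and RNU1-67P and RNU1-16P kept the Sm stretch without the pairing stretch.

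Position in a host gene also varied among the pseudogenes. Of the 29 pseudogene entries in an intron of a protein-coding gene on the same strand, 20 (69.0%) had a count, with 1125 counts in all. Of the 83 other pseudogene entries with a known position, 35 (42.2%) had a count, with 629 in all. RNU1-67P and RNU1-16P provided 497 and 332 of the 1125 intronic counts. A read from such an entry cannot be told apart from a read of the host gene's intron. All 11 variants with a sequence lay on chromosome 1, which held 31 of the U1 entries.

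U1 took a smaller part of the small RNA counts in the RUNX1 samples. In control replicates 1 to 3 the U1 entries had 161, 769 and 683 counts, and in RUNX1 replicates 1 to 3 they had 261, 108 and 253. As a percent of all counts, these were 0.00995, 0.0125 and 0.011% in the control samples and 0.00171, 0.00127 and 0.0032% in the RUNX1 samples. Between 24 and 49 U1 entries were detected per control sample and between 27 and 35 per RUNX1 sample. Over the groups, 41 entries were detected in both, 18 in control samples alone with at most 8 counts each, and 9 in RUNX1 samples alone with at most 3 counts each.

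After TMM normalization, the family sum was 77.0, 95.4 and 89.9 CPM (counts per 1e6 counts of the scaled library) in the control samples and 22.6, 17.3 and 36.9 CPM in the RUNX1 samples. Every RUNX1 sample was below every control sample, and RUNX1 replicate 3 was the highest of its group. The means were 87.5 ± 9.47 CPM (SD, n = 3) and 25.6 ± 10.2 CPM (SD, n = 3). The fitted log2 fold change of the sum was -1.79 ± 0.26 (SE), or 3.46-fold lower, and it was -2.05 without RUNX1 replicate 3. RNU1-67P and RNU1-16P carried much of this difference, and the log2 fold change of the other entries together was -1.28. In RNA from a whole culture, fewer cells with U1 fragments and fewer fragments per cell cannot be told apart.

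Enough counts for a test were present in 12 U1 entries, 9 pseudogenes and 3 variants, which held 1864 counts (83.4% of the U1 counts). Of these, 9 were lower in the RUNX1 samples and 0 were higher by edgeR's quasi-likelihood test, counting an entry as altered where p was under 0.05 and the log2 fold change was 0.5 or more in size. Over all 947 small RNAs tested, 29.6% were lower and 28.0% were higher by the same thresholds. The count filter can be passed through 1 group alone, so entries near 0 in the RUNX1 samples were tested because of their control counts. With at least 10 counts required in every sample, only RNU1-59P and RNU1-67P were left, and both were lower. In that setting 29.5% of 654 small RNAs were lower and 29.5% were higher. Scaling by library size alone gave 10 lower and 0 higher U1 entries, with 55.0% of all small RNAs lower and 12.7% higher, and scaling by TMM on microRNAs gave 9 and 0, with 36.4% lower and 22.5% higher. No U1 entry was higher at an unadjusted p under 0.05 whatever the size of its change, in edgeR with or without the count filter or in DESeq2. The median log2 fold change was -2.05 over the 12 U1 entries and -0.06 over all small RNAs tested. In the 9 lower entries every RUNX1 sample was below every control sample. This held for 317 of the 947 small RNAs tested, and the opposite for 297. Without RUNX1 replicate 3, 13 U1 entries passed the filter, 10 of them were lower and 0 higher, and 31.3% of all small RNAs tested were lower and 31.9% higher.

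RNU1-16P, the copy in the DCUN1D2 intron, fell the most. It had 37, 142 and 149 counts in control replicates 1 to 3 and 1, 1 and 2 counts in RUNX1 replicates 1 to 3. In CPM these were 17.7, 17.6 and 19.6 against 0.0868, 0.16 and 0.292. The control samples were close to each other, and each RUNX1 sample was near the level of a single count. The log2 fold change was -6.67 ± 0.33 (SE), with a Benjamini-Hochberg adjusted p of 9.4e-07 in edgeR. From the summed counts, the RUNX1 level was 0.00879 of the control level, with an exact 95% interval of 0.00238 to 0.0227 for counting error only.

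RNU1-67P, the most counted U1 entry and the one with 8 mismatches to the canonical sequence, also fell. Its counts were 33, 188 and 160 in the control samples and 38, 10 and 68 in the RUNX1 samples, or 15.8, 23.3 and 21.1 CPM against 3.3, 1.6 and 9.93 CPM. RUNX1 replicate 3 lay closest to the control samples, yet the groups did not overlap. The log2 fold change was -2.07 ± 0.49 (SE; edgeR, adjusted p = 0.00546), and it was -2.88 ± 0.24 without RUNX1 replicate 3. Of its 25-base windows, 55.7% were its own, and its counts could include reads of near-identical entries.

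RNU1-59P, the most diverged of the copies shown above, changed less. Its counts were 12, 76 and 58 in the control samples and 46, 15 and 30 in the RUNX1 samples. The CPM values were 5.74, 9.43 and 7.64 against 3.99, 2.40 and 4.38, with all RUNX1 samples below the control samples. The log2 fold change was -1.12 ± 0.28 (SE; edgeR, adjusted p = 0.0074). All of its 25-base windows were unique in the family. RefSeq now names this locus RNVU1-24, that is, as a variant.

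The variants did not move as 1 group. RNVU1-6 had 9, 45 and 40 counts in the control samples and 22, 8 and 14 in the RUNX1 samples, or 4.30, 5.59 and 5.27 CPM against 1.91, 1.28 and 2.04 CPM. It fell by a log2 fold change of -1.55 ± 0.27 (SE; edgeR, adjusted p = 0.00097), with no overlap of the groups. RNVU1-17 had 4, 20 and 25 counts against 6, 1 and 3, or 1.91, 2.48 and 3.29 CPM against 0.521, 0.16 and 0.438 CPM. It fell as well, with a log2 fold change of -2.71 ± 0.42 (SE; edgeR, adjusted p = 0.00054). Neither RNVU1-6 nor RNVU1-17 had 10 counts in every sample, so neither was tested under that stricter filter.

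RNVU1-14 did not pass the test. It had 9, 18 and 20 counts in the control samples and 29, 10 and 32 in the RUNX1 samples, or 4.30, 2.23 and 2.63 CPM against 2.52, 1.6 and 4.67 CPM. The groups overlapped, with a log2 fold change of 0.08 ± 0.42 (SE; edgeR, adjusted p = 0.88), and the sign depended on the normalization and on single samples. Of the 3 tested variants, this was the one inside an exon of another transcript. It was also the one whose Sm stretch was not an exact match, differing from that of RNU1-1 in its last base only. Whether either feature bears on its level was not tested.

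The other tested pseudogene entries had fewer counts. RNU1-83P, in the PPM1H intron, had 4, 28 and 13 counts in the control samples and 0, 1 and 2 in the RUNX1 samples. Its log2 fold change was -4.15 ± 0.69 (SE; edgeR, adjusted p = 0.00077), and the RUNX1 level from summed counts was 0.048 of the control level with an exact 95% interval of 0.00955 to 0.15. The log2 fold change of RNU1-83P was -3.32 without RUNX1 replicate 1 and -5.01 without RUNX1 replicate 3. RNU1-120P had 3, 19 and 26 counts against 2, 0 and 2, and it fell by a log2 fold change of -3.89 ± 0.58 (SE; edgeR, adjusted p = 0.00042). In both entries all RUNX1 samples were within 2 counts of 0.

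RNU1-85P, in an intron of TEX14 at chr17:58679527-58679690, had 12, 40 and 42 counts in the control samples and 3, 7 and 0 in the RUNX1 samples. Its level was 5.41 ± 0.40 CPM (SD, n = 3) in the control samples and 0.46 ± 0.59 CPM (SD, n = 3) in the RUNX1 samples, with a log2 fold change of -3.64 ± 0.58 (SE; edgeR, adjusted p = 0.00057), or -4.85 without RUNX1 replicate 2 and -3.09 without RUNX1 replicate 3. RNU1-122P had 15, 43 and 23 counts against 11, 9 and 8, and it fell by -2.04 ± 0.38 (SE; edgeR, adjusted p = 0.00144) on the log2 scale. This entry has 156 bases and lies at chr1:148334612-148334767 in an intron of the noncoding RNA LINC01138. Neither entry kept the pairing stretch.

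A pair of pseudogene entries did not pass. RNU1-60P had 2, 20 and 18 counts in the control samples and 23, 18 and 29 in the RUNX1 samples, or 0.957, 2.48 and 2.37 CPM against 1.995, 2.88 and 4.23 CPM. The groups overlapped, with a log2 fold change of 0.43 ± 0.38 (SE; edgeR, adjusted p = 0.363). RNU1-148P had 4, 11 and 11 counts against 16, 8 and 10, with a log2 fold change of -0.10 ± 0.32 (SE; edgeR, adjusted p = 0.859). Its levels were 1.58 ± 0.30 and 1.38 ± 0.09 CPM (SD, n = 3 each). For these 3 entries that did not pass, the exact 95% counting intervals of the RUNX1 over control ratio were 0.549 to 1.63 for RNU1-148P, 0.742 to 1.61 for RNVU1-14 and 0.843 to 1.91 for RNU1-60P.

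**Figure D2:**
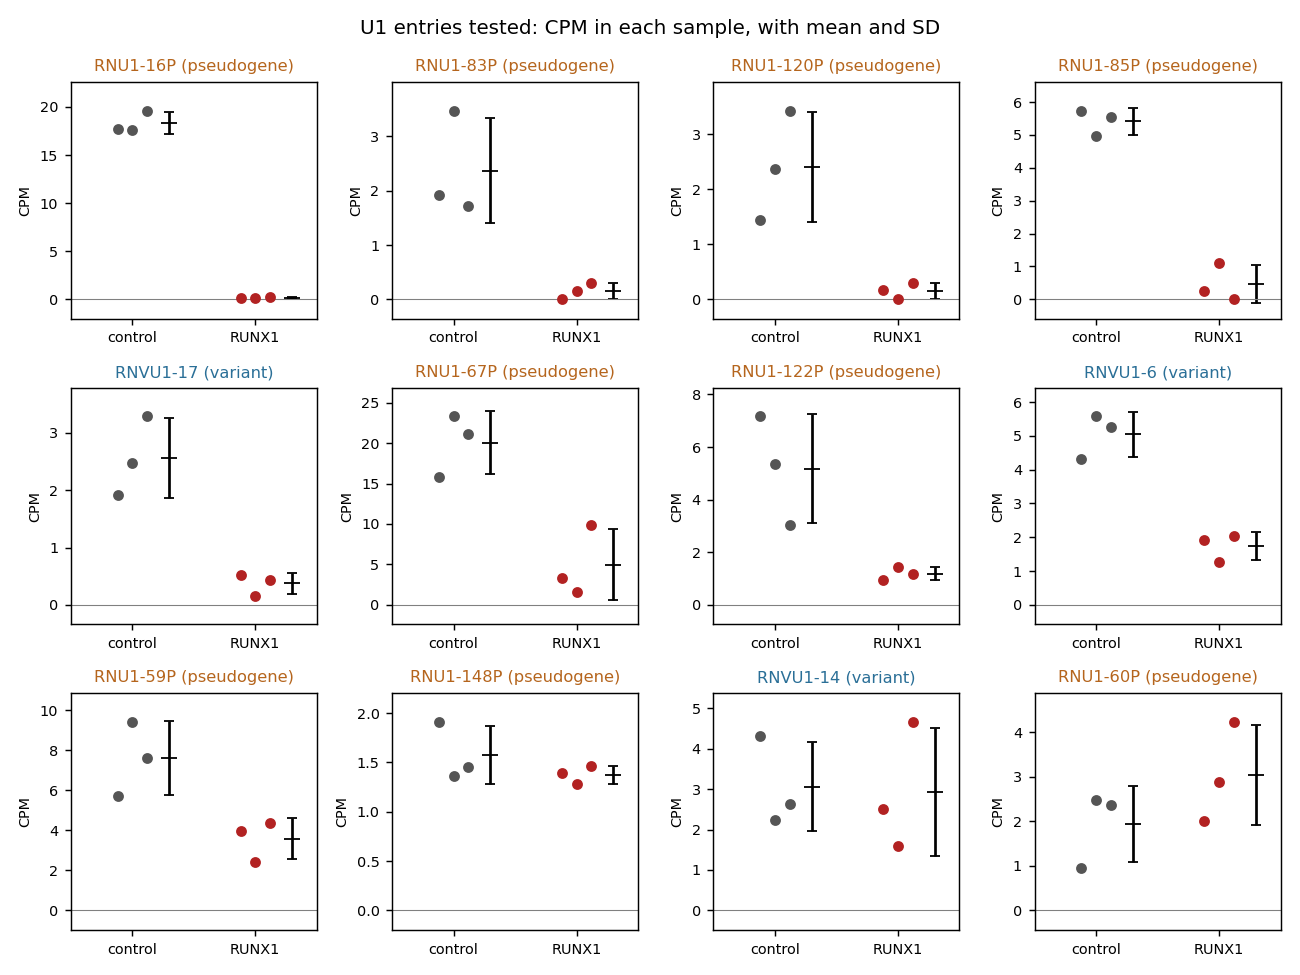
CPM of the 12 tested U1 entries in each control and RUNX1 sample (points, left to right replicates 1 to 3), with the mean and SD (n = 3) beside them, each panel on its own axis. In 9 panels all RUNX1 samples lie below all control samples, and in those of RNU1-148P, RNVU1-14 and RNU1-60P the groups overlap.

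**Figure D3:**
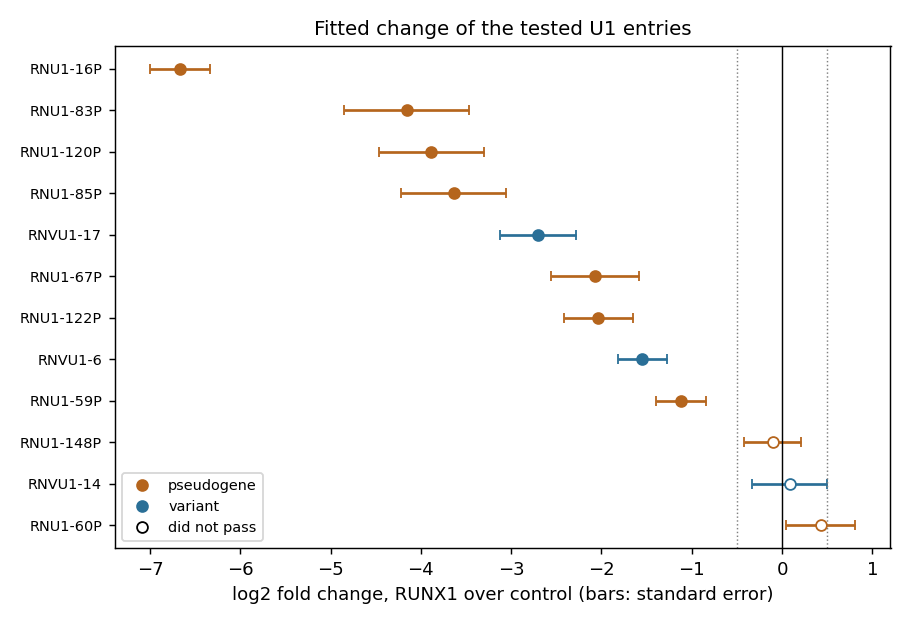
Fitted log2 fold change of the 12 tested U1 entries, RUNX1 over control, with standard errors and dotted lines at a change of 0.5 in size. The values run from -6.67 for RNU1-16P to 0.43 for RNU1-60P, and open points did not pass.

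Sequence features were compared between the tested entries that fell and those that did not only as a description. The 11 tested entries with a sequence were 156 to 164 bases long and 73.3 to 95.1% identical to RNU1-1. Their lengths were close, but the percent of 25-base windows of their own ran from 55.7 to 100%, so levels of different entries are not compared. The pairing stretch was in place in the 3 variants and in none of the 8 pseudogenes. The Sm stretch was found as an exact match in 8 of the 11, and not in RNVU1-14, RNU1-83P and RNU1-122P. RNVU1-14 differed from it in the last base only and RNU1-83P in the first base only. An intron of a protein-coding gene on the same strand held 4 of the 11, RNU1-16P, RNU1-67P, RNU1-83P and RNU1-85P, and all 4 fell, as did 5 of the other 7.

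A further 56 U1 entries had counts but too few for the test, with 371 counts in all and 15 entries of a single count. The 5 with the most counts were RNU1-134P, RNU1-112P, RNU1-146P, RNU1-20P and RNU1-136P. RNU1-134P, in an intron of DNAJC5, had 2, 5 and 8 counts in the control samples and 10, 2 and 7 in the RUNX1 samples. RNU1-112P had 0, 8 and 9 against 9, 1 and 1. RNU1-146P had 0, 13 and 11 against 0, 0 and 4.

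RNU1-146P and the next 2 entries each had 4 counts over the RUNX1 samples. RNU1-20P, in an intron of FGF12, had 2, 7 and 15 counts in the control samples and 2, 0 and 2 in the RUNX1 samples. RNU1-136P, whose pairing stretch carries C4A, had 2, 14 and 6 against 3, 1 and 0. The unnumbered U1 entry had 3, 3 and 0 counts against 2, 0 and 1. With no count filter, 14 of the 68 detected U1 entries were lower in edgeR at the same thresholds and 0 were higher. Of all 3084 small RNAs with a count, 12.3% were lower and 12.4% were higher. The 5 additional entries were RNU1-20P, RNU1-146P, RNU1-136P and, named here after their values were seen, RNU1-46P and RNU1-22P, which had at most 6 counts in any control sample and 0 counts in all RUNX1 samples.

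The make-up of the U1 counts also differed between the groups. Pseudogene entries made up 83.2, 87.4 and 85.8% of the U1 counts in the control samples and 74.3, 78.7 and 76.7% in the RUNX1 samples. The groups did not overlap, with means of 85.5 ± 2.10% and 76.6 ± 2.19% (SD, n = 3 each). The Wilson 95% intervals, which cover counting error only, reached from 76.7 to 88.2% in control replicate 1 and from 70.1 to 85.4% in RUNX1 replicate 2, the samples with the fewest U1 counts. The difference of -8.90 percentage points rested in part on RNU1-16P. Without it the shares were 78.2, 84.5 and 81.8% against 74.2, 78.5 and 76.5%, the groups overlapped, and the difference was -5.12 points.

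Variants took a larger share in the RUNX1 samples than in the control samples, mostly through RNVU1-14. Their share was 14.3, 12.2 and 14.1% of the U1 counts in the control samples and 24.9, 21.3 and 22.9% in the RUNX1 samples, or 13.5 ± 1.13% and 23.0 ± 1.81% (SD, n = 3 each). The groups did not overlap, with or without RNU1-16P, whose removal gave means of 17.2 ± 1.91% and 23.2 ± 1.75% (SD, n = 3 each). Of the 9.52-point rise of the variant share, RNVU1-14 alone held 7.39 points. Without RNU1-16P the variant share rose by 6.03 points and that of RNVU1-14 by 6.46 points. A separation of the groups was therefore not shown for the other variants. These are shares of a falling sum, so a higher share did not go with a higher level. The tested variants either fell, as RNVU1-6 and RNVU1-17 did, or did not pass the test.

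Single entries exchanged places in the family. RNU1-16P went from 23.0, 18.5 and 21.8% of the U1 counts in the control samples to 0.383, 0.926 and 0.791% in the RUNX1 samples. RNU1-60P went from 1.24, 2.60 and 2.64% to 8.81, 16.7 and 11.5%, and RNVU1-14 from 5.59, 2.34 and 2.93% to 11.1, 9.26 and 12.6%, both with no overlap although their CPM overlapped. RNU1-67P had 20.5, 24.5 and 23.4% against 14.6, 9.26 and 26.9%, with overlap through RUNX1 replicate 3, which had the highest share of all, and with none without it. Of the pseudogene names, 8 are RNVU1 variants in RefSeq, 4 of them tested (RNU1-59P, RNU1-85P, RNU1-120P and RNU1-122P). With these 8 counted as variants, the pseudogene share was 61.7 ± 3.95% and 53.7 ± 5.89% (SD, n = 3 each). The samples then had 57.1, 64.1 and 63.8% against 50.6, 50 and 60.5%, so the groups overlapped through RUNX1 replicate 3 and did not overlap without it.

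**Figure D4:**
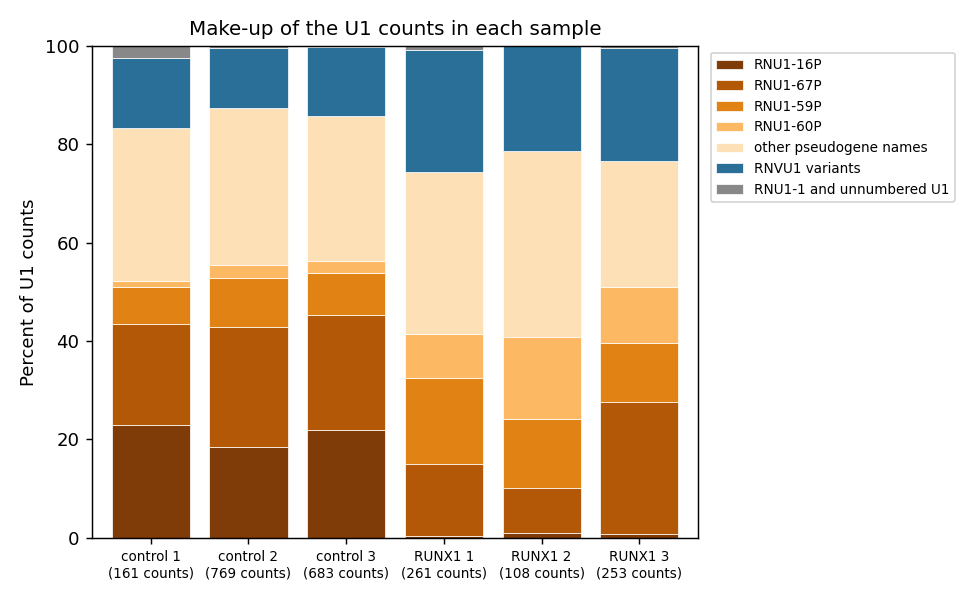
Percent of the U1 counts of each sample held by 4 pseudogene entries, the other pseudogene names, the variants, and RNU1-1 with the unnumbered U1 entry, with the number of U1 counts under each bar. RNU1-16P takes 18.5 to 23.0% in the control samples and under 1% in the RUNX1 samples, where the variants and RNU1-60P take larger shares.

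The other snRNA families set the family sum in context. The U5 sum, for the snRNA that holds the exon ends together in the spliceosome, was 920 ± 15.4 CPM in the control and 301 ± 87.8 CPM in the RUNX1 samples (SD, n = 3 each), with no overlap. The U6 sum, for the snRNA that replaces U1 at the 5′ splice site, was 38.4 ± 4.11 and 13.8 ± 4.42 CPM, and that of U7, which serves histone pre-mRNA processing, was 67.9 ± 0.90 and 21.6 ± 9.85 CPM, both with no overlap. The log2 ratios of mean CPM were -1.61 for U5, -1.48 for U6 and -1.65 for U7, beside -1.77 for U1.

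The other families gave no such separation below the control samples with TMM scaling. The U2 sum, for the snRNA that pairs with the branch site, was 237 ± 43.2 and 315 ± 125 CPM (SD, n = 3 each), and the U4 sum was 45.5 ± 5.68 and 53.7 ± 19.4 CPM, both with overlapping groups. The U4 overlap came from RUNX1 replicate 3, with 31.4 CPM, while the other RUNX1 samples had 62.6 and 67.0 CPM against 44.0, 51.8 and 40.7 CPM in the control samples and lay above all of them. The sum of the minor spliceosome snRNAs was 491 ± 29.8 and 723 ± 71.4 CPM, with all RUNX1 samples above the control samples. These directions depended on the scaling. With library size alone the log2 ratio was -0.26 for U2, whose groups then overlapped through RUNX1 replicate 3 only. The other RUNX1 samples lay below all control samples for U2. The log2 ratio was -0.50 for U4, whose RUNX1 samples were then all below, and -0.14 for the minor snRNAs, whose groups then overlapped. U1 at -2.44, U5 at -2.29, U6 at -2.15 and U7 at -2.32 stayed below the control samples. Among the tested entries, 4 of 6 were lower and 1 higher for U2, 0 of 2 were lower or higher for U4, 6 of 8 were lower for U5, 3 of 3 for U6 and 1 of 1 for U7, and 0 of 2 were lower and 1 higher for the minor snRNAs, against 29.6% lower and 28.0% higher of all small RNAs tested. The difference between U1 and these families was not tested.

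Within the major spliceosome snRNAs, U1 was the smaller part in the RUNX1 samples. It made up 6.11, 7.09 and 6.51% of the summed U1, U2, U4, U5 and U6 counts in the control samples and 3.96, 2.86 and 3.90% in the RUNX1 samples, with no overlap. The means were 6.57 ± 0.49% and 3.57 ± 0.62% (SD, n = 3 each). This share does not depend on the normalization between samples. It is a share of a total whose parts moved differently. With TMM scaling the log2 ratio was -1.61 for the U5 sum, near the -1.77 of U1, and 0.41 for the U2 sum. The U2 value rested on RUNX1 replicate 3. Without it the RUNX1 mean of the U2 sum was 243 CPM, close to the control mean of 237 CPM. A lower share was therefore not shown to be particular to U1.

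**Figure D5:**
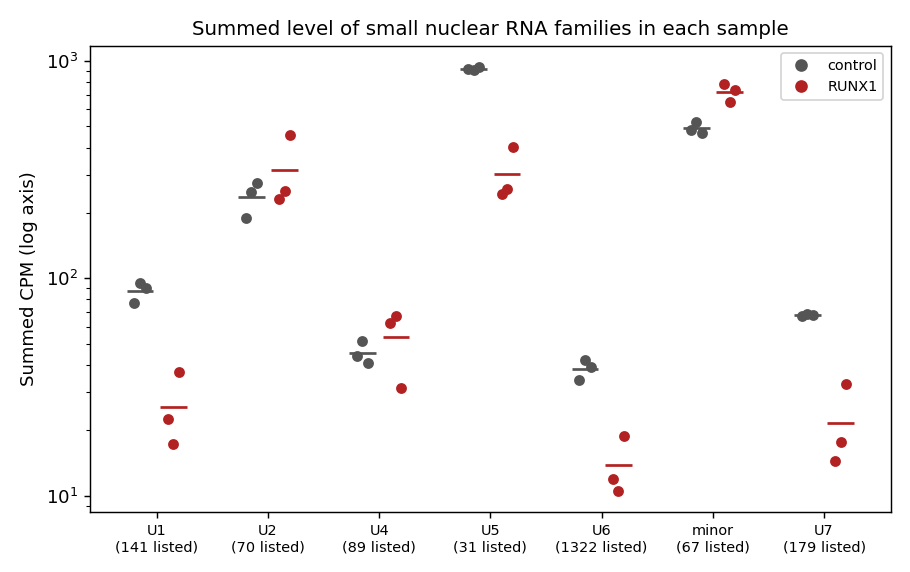
Summed CPM of 7 snRNA families in each sample on a log axis, with the group means as lines and the number of entries listed under each name. U1, U5, U6 and U7 lie lower in all RUNX1 samples, U2 and U4 overlap (U4 through RUNX1 replicate 3), and the minor spliceosome snRNAs lie higher with TMM scaling but overlap with library size alone.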

How the data were processed

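Small RNA libraries were made by the authors from 1000 ng of total RNA per sample with the TruSeq Small RNA kit and sequenced on a HiSeq2000, and OASIS with standard parameters gave the counts. The deposited values are whole-number counts per small RNA without normalization. The submitters' processing notes name CASAVA 1.8.2 and the build hg19. The aligner and the handling of reads that match several entries are not given in the sources used here. The kit selects small fragments, so counts on U1 are counts of fragments. The 5 tally lines that name no small RNA held 0 counts in every sample.

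Groups follow the sample titles. The samples are biological triplicates per the labels. The library names of RUNX1 replicates 1 and 2 carry the same number but different index sequences, and they were kept as separate samples by their titles. Their counts differed beyond sampling noise, which cannot tell separate cultures from repeated preparations of the same RNA. The p-values measure only the spread between these samples. Small RNAs were kept with edgeR 4.0.16 in R 4.3.3 (filterByExpr, minimum count 10, minimum total 15), scaled by TMM factors and fitted with the condition alone by the quasi-likelihood functions glmQLFit and glmQLFTest. Altered meant p under 0.05 with a log2 fold change of 0.5 or more in size, and p-values were adjusted by Benjamini-Hochberg over all 947 small RNAs. No p-value was computed for the family sum or for shares. On simulated data with a log2 fold change of 1.5 in this comparison (918 small RNAs passing the filter), 99.5% of the changed ones were recovered and 4.67% of the unchanged ones were called. The simulation gave every small RNA the same coefficient of biological variation, 0.18, and held no outlying replicate. These rates therefore need not hold for the U1 entries, which have few counts.

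Sequences were matched to GENCODE 29 (GRCh38) by name, since the tables hold no coordinates, and aligned to RNU1-1 with Biopython 1.88. Named are all canonical genes, all tested entries and the 5 most counted entries that failed the filter. The members, lists and tests were chosen with earlier results of these data known. Alternatives were DESeq2 1.42.0, RLE factors, library size only, TMM on microRNAs, 2 other count filters, stricter thresholds, a replicate block, other sets of entries, and each replicate left out.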

Additional observations from a re-analysis of the deposited data

How the results depend on the processing

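The 9 lower U1 entries remained lower in every setting that tested them, and no setting gave a higher one. The number of lower entries was 14 with no count filter and 2 with at least 10 counts in every sample, since the latter left 2 entries to test, and 9 to 10 with each replicate left out. Of all small RNAs tested, 12.3%, 29.5% and 25.9 to 31.3% were lower in these settings. The percentages higher were 12.4%, 29.5% and 25.4 to 31.9%. The family sum had a log2 fold change of -2.45 with library size only, where the median of all small RNAs moved from -0.06 to -0.76 (-0.26 with TMM on microRNAs), and of -1.28 without RNU1-67P and RNU1-16P, a setting chosen after seeing the data. It ranged from -2.05 to -1.53 with each replicate left out. The pseudogene share differed by -5.12 points without RNU1-16P, also chosen after seeing the data, and by -10.0 to -7.78 points with each replicate left out.

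RNVU1-14, which did not pass, had a log2 fold change of -0.60 with library size only, -0.11 with TMM on microRNAs, -0.021 with the replicate block, and -0.22 to 0.38 with each replicate left out, below 0 without control replicate 2 or RUNX1 replicate 3. RNU1-60P had -0.25 with library size only, where RNU1-148P passed with -0.80. The cause was not tested. The other 139 values for single entries kept their direction and their side of the threshold. With the replicate block, 9 entries were lower and the sum was at -1.83, with 30.3% of all small RNAs tested lower and 27.4% higher. Samples sharing a number had correlations of deviations of -0.02, -0.07 and 0.03, so no effect of a shared number was seen. With 3 samples per group, these values cannot show whether samples with the same number were handled together. Depth limits the entries with few counts: 3 counts are 0.000185% of the shallowest sample.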
